A study of Caenorhabditis elegans with 2 samples.

Results

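The peaks described here are the binding peaks of ZIP-8 whose summit lay at the promoter of a protein-coding gene of Caenorhabditis elegans. The assay was ChIP-seq of eGFP-tagged ZIP-8 on whole embryonic worms of mixed stage and mixed sex, of strain OP327, which carries the mutation unc-119(ed3) on chromosome III and the integrated transgene wgIs327. The data comprised 1 group of 2 biological replicates, each with its own list of peaks, a pooled list made from both, and an optimal list chosen from these by the reproducibility of peak ranks. No other strain, stage or treatment was analysed here, no untagged strain or input among them, and the labels give both replicates the same strain. A peak was taken as a promoter peak when its summit fell between 1000 bp before and 200 bp after any annotated start of a protein-coding transcript. Of 2610 optimal peaks on the 6 nuclear chromosomes, 808 (31.0%) met this rule, and the other 1802 served for comparison. The rule used annotation and position only, so within the optimal list it did not fix signal, sequence or recovery in the replicates. All optimal peaks had already been selected by the reproducibility of their ranks, so comparisons of signal and recovery hold within that selection only. Because the labels do not say whether the 2 replicates were separate cultures, differences between them may be technical, and peaks themselves are not replicates, so each p-value below describes this set of peaks.

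ZIP-8 belongs to the bZIP family, whose members hold DNA as dimers, each subunit reading one side of a short DNA word through a basic region that continues into a leucine zipper. The palindrome TGACGTCA is the cyclic AMP response element (CRE) of CREB and ATF factors, and TTGCGCAA is the palindrome of C/EBP factors. Promoters of worm genes are compact, many genes are trans-spliced, and for those genes the annotated start can lie downstream of the place where transcription begins. Neighbouring genes on opposite strands can share the stretch between their starts, which is called a divergent promoter.

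Sequences under promoter peaks are shown because they carry the sites on which the results below turn. They were taken in order of signal within each kind of site, from part of the genome only, so some of the highest peaks are not among them, and acl-14/ucp-4 was added as a divergent promoter. Each is the 101 bases centred on a summit, in ce11 coordinates and on the strand of the nearest gene, with every full bZIP site in capitals. A full site was a match on either strand to 1 of 6 words of 8 bases: TGACGTCA, TGACGTAA, TTACGTAA, TTGCGCAA, TGATGCAA and TGACGCAA. The first set holds the CRE palindrome, and at trxr-1 and acl-14/ucp-4 it stands beside TGACGTAA, read as TTACGTCA on the other strand.
lido-8, chrII:2998002-2998102, plus strand: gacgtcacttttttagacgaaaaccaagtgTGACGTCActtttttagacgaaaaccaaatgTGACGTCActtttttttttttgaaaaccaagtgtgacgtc
C39B5.2, chrIII:2234375-2234475, plus strand: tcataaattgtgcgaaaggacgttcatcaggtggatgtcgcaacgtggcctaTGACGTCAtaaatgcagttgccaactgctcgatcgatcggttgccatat
C25F9.2, chrV:19421282-19421382, plus strand: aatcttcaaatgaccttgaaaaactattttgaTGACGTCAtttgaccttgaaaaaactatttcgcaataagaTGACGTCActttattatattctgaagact
trxr-1, chrIV:7012364-7012464, plus strand: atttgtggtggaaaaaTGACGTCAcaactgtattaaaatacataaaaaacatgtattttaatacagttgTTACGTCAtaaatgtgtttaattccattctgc
acl-14/ucp-4, chrV:9333799-9333899, minus strand: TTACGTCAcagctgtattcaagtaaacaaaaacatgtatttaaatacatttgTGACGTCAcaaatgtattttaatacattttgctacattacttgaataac

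The second set holds the C/EBP palindrome, which at T24E12.2 and lin-18 is joined by TGACGCAA, read at lin-18 as TTGCGTCA.
acdh-6, chrIII:8560548-8560648, plus strand: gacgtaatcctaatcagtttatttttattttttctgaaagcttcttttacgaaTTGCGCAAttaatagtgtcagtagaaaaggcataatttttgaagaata
T24E12.2, chrII:3782459-3782559, plus strand: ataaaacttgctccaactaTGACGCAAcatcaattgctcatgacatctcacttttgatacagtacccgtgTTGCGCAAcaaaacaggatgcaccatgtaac
lin-18, chrX:3957625-3957725, plus strand: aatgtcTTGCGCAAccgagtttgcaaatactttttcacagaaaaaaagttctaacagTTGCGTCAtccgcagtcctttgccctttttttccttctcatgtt

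The third set holds other full sites, a single TGACGTAA near H43E16.1 and TTACGTAA with TGATGCAA (read as TTGCATCA) at zip-8 itself.
H43E16.1, chrII:6673986-6674086, plus strand: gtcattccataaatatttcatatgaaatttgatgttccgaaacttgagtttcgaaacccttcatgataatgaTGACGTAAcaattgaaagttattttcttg
zip-8, chrIII:6478786-6478886, plus strand: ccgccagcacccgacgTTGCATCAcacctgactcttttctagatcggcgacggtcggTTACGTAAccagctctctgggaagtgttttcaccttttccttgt

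The fourth set holds no full site, and these 4 are the promoter peaks of that kind with the highest signal. In these sequences the capitals mark TTACGCAA or its reverse complement TTGCGTAA, a word that differs from the C/EBP palindrome by 1 base and joins the left side of TTACGTAA to the right side of TTGCGCAA. All 4 sequences held it, F54E7.6 in 2 copies, and the counts that this observation led to are given further on.
F54E7.6, chrIII:5661090-5661190, minus strand: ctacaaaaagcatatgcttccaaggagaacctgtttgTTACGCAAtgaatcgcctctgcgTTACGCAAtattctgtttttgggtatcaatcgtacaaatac
K12H4.7, chrIII:8051988-8052088, minus strand: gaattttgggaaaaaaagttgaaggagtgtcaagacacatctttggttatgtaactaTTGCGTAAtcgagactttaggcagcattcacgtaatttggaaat
best-18/blos-1, chrIII:10212245-10212345, plus strand: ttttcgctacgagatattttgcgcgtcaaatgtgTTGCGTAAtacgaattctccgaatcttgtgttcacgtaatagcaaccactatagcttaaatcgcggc
zip-8, chrIII:6478406-6478506, plus strand: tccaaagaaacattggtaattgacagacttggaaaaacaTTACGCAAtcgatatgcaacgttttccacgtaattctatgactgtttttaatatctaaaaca

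Promoter peaks reached high signals at genes of varied function. The highest lay at -631 bp from lido-8, with a pooled signal of 524, and the peaks overlapping it had signals of 464 in replicate 1 and 111 in replicate 2. Signal here is the authors' enrichment value of a peak, on a scale the sources used here do not give, so it was read within a list only. That of lido-8 was the fifth highest of all optimal peaks. Next came spe-48/Y51F10.11, a divergent pair whose first gene acts in sperm, with 307 pooled, 191 in replicate 1 and 116 in replicate 2. The peak of acdh-6, which encodes an acyl-CoA dehydrogenase of fatty acid breakdown, had 303 pooled, 238 in replicate 1 and 59.9 in replicate 2. T24E12.2 followed with 300.03 pooled, 208 in replicate 1 and 91.6 in replicate 2. These 4 highest promoter peaks each carried a CRE or C/EBP palindrome and had an overlapping peak in both replicates.

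F54E7.6 broke that row, with 285 pooled, 215 in replicate 1 and 68.3 in replicate 2 and no full site. The peak of abt-2, which encodes an ABC transporter, had 282 pooled, 243 in replicate 1 and 43.1 in replicate 2 over 2 copies of the CRE palindrome. C25F9.2 also held 2 copies, with 276 pooled, 214 in replicate 1 and 59.995 in replicate 2. The remaining 8 of the 15 highest ran between 187 and 241 in pooled signal. Among these were shc-1, which encodes a Shc-type adaptor (231 pooled, 160 in replicate 1, 50.5 in replicate 2), and trxr-1, which encodes thioredoxin reductase (208, 168 and 43.6 in the same order). C01G6.3, at -689 bp, was the one promoter peak of all 808 with both palindromes (226 pooled, 156 in replicate 1, 62.4 in replicate 2). C39B5.2, K12H4.7, best-18/blos-1, hot-2 and col-129, a cuticle collagen gene, completed the 15. Of these, hot-2 alone had its summit downstream of the start, at 67 bp.

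**Figure D1:**
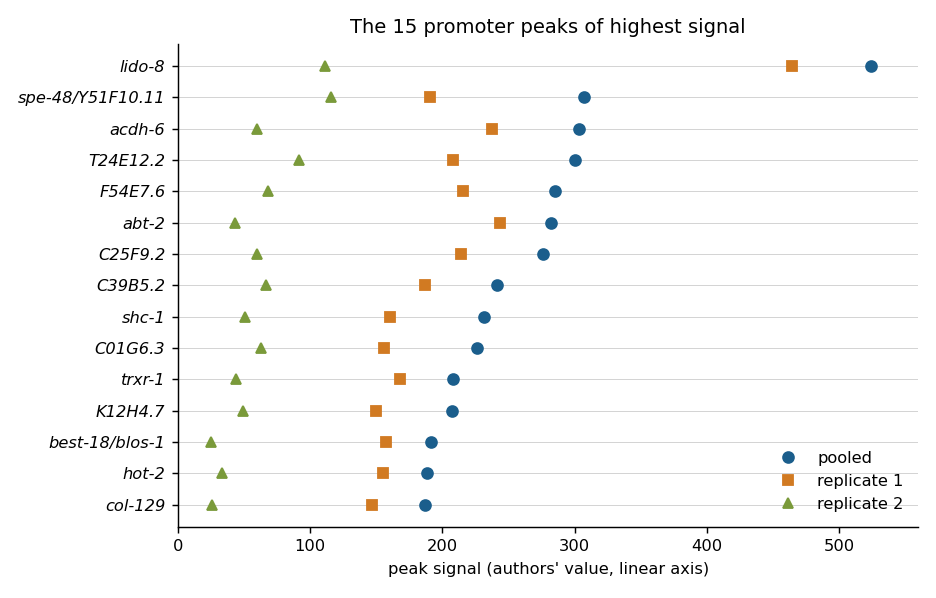
Signal of the 15 highest promoter peaks (horizontal axis, linear, authors' value) in the pooled list and in the overlapping peak of each replicate list, 1 gene or gene pair per row. Replicate 1 values run from 146 at col-129 to 464 at lido-8, replicate 2 values from 24.7 at best-18/blos-1 to 116 at spe-48/Y51F10.11, and values are to be compared within a list, since a common scale of the lists is not given.

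Against the other optimal peaks, promoter peaks did not differ in height by the test run. Their median signal was 38.2 (interquartile range 27.5 to 57.3), against 38.5 (27.6 to 59.3) for the other optimal peaks. Of promoter peaks, 49.8% lay above the median of the optimal list, against 50.1% of other peaks (difference -0.36 percentage points, two-sided Fisher's exact test, Benjamini-Hochberg adjusted exact p = 0.899 over 10 comparisons). The share of promoter peaks was 30% of the 100 highest peaks and 31.3% of the 610 lowest. The highest signal was 524 at promoters and 1224 elsewhere, so the tallest peak of the list was not a promoter peak. Per base, promoters held more summits: the windows covered 26.1% of the nuclear genome and held 30.8 summits per Mb, against 24.3 per Mb elsewhere.

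Shares of optimal peaks with a site under the summit did not differ by the tests run. A full site lay within 50 bp of 629 promoter summits (77.8%, exact 95% interval 74.8% to 80.7%), against 79.1% of other summits, where 78.7% of all optimal peaks had one (adjusted exact p = 0.899, Fisher's exact test). In the 2610 highest peaks of replicate 2 alone, 44.5% of promoter peaks and 51.2% of other peaks had one, and that difference of -6.68 points passed (adjusted exact p = 0.00591). The CRE palindrome was found at 39.2% of promoter peaks and 39.6% of other peaks (39.5% of all, adjusted exact p = 0.899). With the C/EBP palindrome it was 15.8% against 16.6% (16.4% of all, adjusted exact p = 0.899). Peaks wider than 290 bp, the median width, made up 0.619% of promoter peaks and 0.777% of others (adjusted exact p = 0.899). These intervals cover counting error only, since the lists give no read counts and the depth is unknown. A 30-base stretch repeated elsewhere in the nuclear genome lay at 4.83% of promoter summits, against 7.82% of other summits (adjusted exact p = 0.00777 over 19 comparisons added after the lists had been examined).

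Recovery in the single replicates was counted next. Of promoter peaks, 678 (83.9%) overlapped one of the 2610 highest peaks of replicate 1 and 510 (63.1%) one of the 2610 highest of replicate 2, against 86.2% and 58.7% of other peaks. Both replicates recovered 51.7% of promoter peaks, against 49.5% of other peaks, where 50.2% of all optimal peaks were so recovered (adjusted exact p = 0.774). With any rank allowed, 801 promoter peaks overlapped a peak of replicate 1 (median signal 24.8) and 687 a peak of replicate 2 (median 11.4). Hence 121 of 808 promoter peaks had no counterpart in replicate 2, against 355 of 1802 other peaks and 476 of all 2610. In replicate 1 the counts were 7, 16 and 23. At any rank, recovery in both replicates was higher at promoters by 4.64 points, which did not pass (adjusted exact p = 0.0506, Fisher's exact test).

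Within the window, summits concentrated a short way upstream of the start. The median position was -313.5 bp, with quartiles at -650 and -101 bp. Density was highest from -200 to -101 bp, at 45.4 summits per Mb of promoter bases, and lowest in the last 100 bp downstream, at 15.7 per Mb. The 200 bp just upstream of the start held 24.8% of promoter summits but 18.9% of promoter bases. The 8059 promoter summits of the pooled list that fell outside the optimal list had 23.1% there, and the difference of 1.66 points did not pass (adjusted exact p = 0.774). Downstream of the start lay 13.5% of optimal promoter summits and 17.2% of the lower-ranked ones, a pair of values that was not tested.

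**Figure D2:**
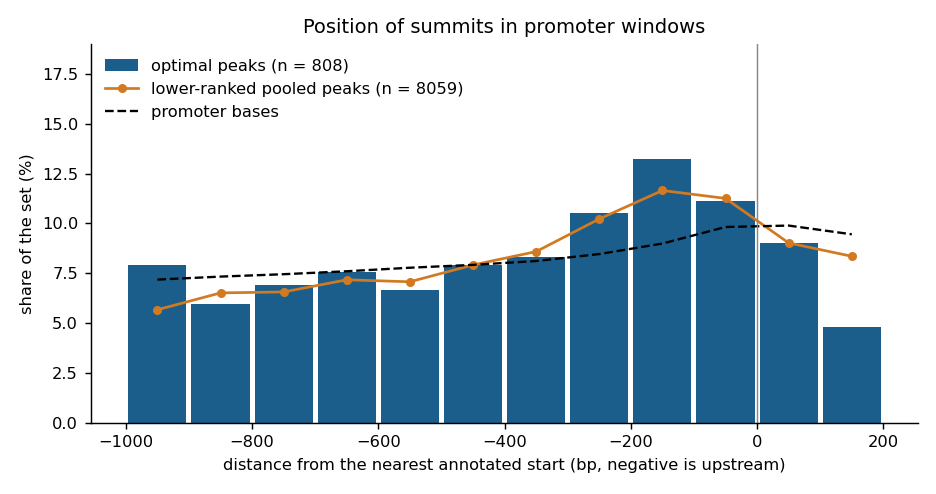
Share of summits (vertical axis, percent of each set) by distance from the nearest annotated start in bins of 100 bp (horizontal axis, negative is upstream). Bars are the 808 optimal promoter peaks, the line with points the 8059 lower-ranked ones, the dashed line the promoter bases themselves; the bars exceed the dashed line most from -200 to -101 bp and fall furthest below it in the last 100 bp downstream.

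Most promoter summits lay in the window of 1 gene. There were 720 of these, 76 (9.41%) in divergent promoters, 12 with genes on the same strand only, and 0 between overlapping genes. Divergent stretches made up 8.89% of promoter bases and held 32.6 summits per Mb, against 30.7 per Mb in other promoter bases. Among lower-ranked promoter summits 11.6% were divergent (adjusted exact p = 0.632). The median position was -140 bp for divergent summits and -341.5 bp for single promoters. Position was taken to the nearest start, so a divergent summit was given the smallest of its genes' distances. The measure itself thus favours a shorter distance there, and the difference was not tested.

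Divergent peaks were led by spe-48/Y51F10.11, with the pooled signal of 307 given above, and best-18/blos-1, a bestrophin gene paired with a gene for a BLOC-1 subunit, with 191 pooled, 157 in replicate 1 and 24.7 in replicate 2. The pair of acl-14, an acyltransferase gene, and ucp-4, which encodes a mitochondrial uncoupling protein, had 155 pooled, 126 in replicate 1 and 17.4 in replicate 2. ZK177.9/ZK177.2 had 143 pooled, 123 in replicate 1 and 18.95 in replicate 2. The 6 that followed ran between 69.2 and 136 in pooled signal, among them F23H11.5/bra-2/crls-1, nth-1/R10E4.6 and lsy-13/mel-46. Of these 6, F23H11.5/bra-2/crls-1 had no overlapping peak in replicate 2. Above the promoter median signal lay 42.1% of divergent peaks and 50.7% of single ones, a difference of -8.59 points that did not pass (adjusted exact p = 0.774, Fisher's exact test). A full site was present at 76.3% of divergent and 77.6% of single peaks (adjusted exact p = 0.899). In replicate 2 alone, taking its 2610 highest peaks, full sites were fewer at divergent than at single promoters by 15.4 points (adjusted exact p = 0.00591). The CRE palindrome was less frequent at divergent than at single promoters, at 26.3% and 40.3% (adjusted exact p = 0.0295 over the 19 added comparisons). That difference did not pass with windows of 500 and 100 bp (unadjusted exact p = 0.145) or with the first start of each gene only (0.140).

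Position and height differed between kinds of site. Of the 808 peaks, 316 held the CRE palindrome, 127 the C/EBP palindrome, 1 both, 185 another full site only, and 179 none. CRE peaks had their summit downstream of the start in 21.2% of cases, against 7.09% of C/EBP peaks (adjusted exact p = 0.000583) and 4.47% of peaks with no full site (adjusted exact p = 6.81e-07, Fisher's exact tests over the 19 added comparisons). From 0 to 200 bp lay 268 of the 1557 CRE palindromes in promoter windows and 60 of the 436 C/EBP palindromes. Of promoter bases, 9.89% lay from 0 to 99 bp and 9.45% from 100 to 200 bp. The class shares were not tested against these backgrounds, so 21.2% by itself shows no preference for the downstream side. Of the 67 downstream CRE summits, 57 lay in an annotated exon, as did 7 of the 9 downstream C/EBP summits and 21 of the 25 with another full site. An annotated transcript begins with an exon, so these counts are in part set by the window. The exon share of all downstream bases was not counted. Examples of downstream CRE summits are the peaks of pax-2, a Pax gene, at 32 bp, of atf-7, a bZIP gene, at 90 bp, and of elt-3, an epidermal GATA factor gene, at 97 bp. Both downstream contrasts held in each replicate taken alone, at 20.6% against 8.64% for CRE and C/EBP peaks in the 2610 highest peaks of replicate 2 (unadjusted exact p = 0.0213) and 21.3% against 6.03% in those of replicate 1 (unadjusted exact p = 8.84e-05).

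C/EBP peaks were the taller class. Their median signal was 51.8, against 37.3 for CRE peaks, and 66.1% of them, against 48.4% of CRE peaks, exceeded the promoter median (adjusted exact p = 0.00142). In replicate 2 alone the shares were 71.6% and 64.9%, and the difference of 6.66 points did not pass (unadjusted exact p = 0.326), whereas in replicate 1 alone they were 75% and 48.1%. Peaks with no full site were lower, with a median of 31.9, and 38.0% of them exceeded the promoter median, against 53.4% of peaks with a site (adjusted exact p = 0.000753). At promoters either palindrome sat at a median of 13.5 bp from the summit. The words that are not palindromes were counted by direction relative to the gene at promoters of 1 gene, and no count passed: TGACGTAA pointed along the gene in 49 of 92 cases (exact binomial p = 0.602, two-sided), TGACGCAA in 34 of 58 (0.237) and TGATGCAA in 7 of 18 (0.481).

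**Figure D3:**
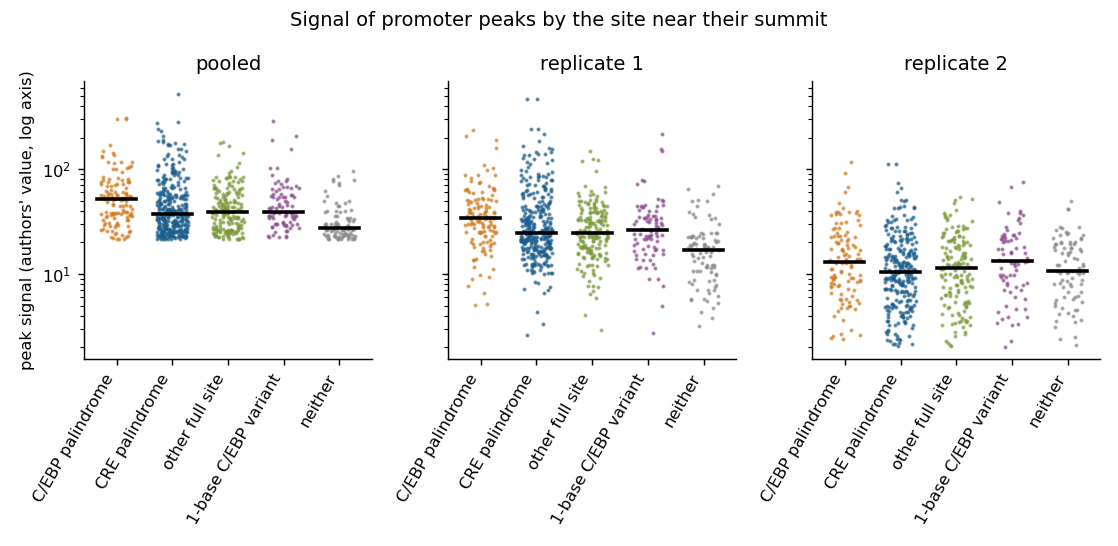
Signal of each promoter peak (points, log axis, authors' value) by the site within 50 bp of its summit, in the pooled list and in the overlapping peak of each replicate list, with the class median as a bar and the 1 peak with both palindromes left out. The pooled medians are 51.8 for C/EBP peaks, 37.3 for CRE peaks, 39.4 for peaks whose site is the word 1 base from the C/EBP palindrome, and 27.4 for peaks with neither.

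Much of the class without a full site shared 1 word. All 23 words of 8 bases that differ from either palindrome by 1 base and are not full sites were counted at the 179 promoter peaks of that class. TTACGCAA, the word seen in the fourth set of sequences, was present at 85 of them (47.5%, exact 95% interval 39.99% to 55.1%), and TTGCACAA came next, at 6. Among lower-ranked promoter peaks with no full site TTACGCAA was present at 86 of 7395 (1.16%, adjusted exact p = 3.50e-98, Fisher's exact test). The word had been noticed in 4 sequences first, and without those peaks the share was 46.3% of 175. In the 2610 highest peaks of single replicates the share at promoters was 55.5% of 164 in replicate 1 and 12.4% of 490 in replicate 2, against 1.09% and 1.43% of their lower-ranked promoter peaks with no full site.

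Over all 808 promoter peaks the word was present at 89 (11.01%), against 12.1% of other optimal peaks, where 11.8% of all had it (adjusted exact p = 0.537). Counting it with the 6 full sites, 714 promoter peaks (88.4%) had a site within 50 bp, against 90.0% of other peaks (adjusted exact p = 0.271). Peaks with this word and no full site had a median signal of 39.4, and 55.3% exceeded the promoter median, against 22.3% of the 94 peaks with neither (adjusted exact p = 2.15e-05). They were recovered among the highest of replicate 1 in 85.9% of cases, against 56.4% of peaks with neither (adjusted exact p = 4.41e-05), while in replicate 2 the shares were 71.8% and 67.0% (adjusted exact p = 0.549). The 4 peaks whose sequences were read first, taken as the highest of their class, were among the 85 in these comparisons. The word was thus found in peaks picked by signal, and the comparisons of signal and recovery are not free of that choice. Genes whose highest promoter peak held this word and no full site included ceh-16, the engrailed homologue, at -553 bp (102 pooled, 76.6 in replicate 1, 30.7 in replicate 2), and cya-1, a cyclin A gene, at -678 bp (66.5 pooled, 34.1 in replicate 1, 36.4 in replicate 2). Also among them were unc-42, a homeodomain gene of neurons, pal-1, the caudal homologue, and daf-2, the insulin receptor gene, with pooled signals of 54.6, 43.9 and 25.4. A lower unc-42 summit, at -217 bp with 38.1 pooled, held the C/EBP palindrome.

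The 94 promoter peaks with neither a full site nor TTACGCAA had a median pooled signal of 27.4, and none was among the 100 highest optimal peaks. The highest were R05D3.9 (97.0 pooled, 58.1 in replicate 1, 28.4 in replicate 2) and zip-7, a bZIP gene (86.8, 33.7 and 41.8 in the same order). For zip-7 the overlapping peak ranked 879 in replicate 1 and 98 in replicate 2. GC content of their 101 bases averaged 42.3% ± 9.44 (SD over 94 peaks), against 39.2% ± 8.38 for CRE peaks (SD over 316 peaks), a difference that was not tested.

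Copies of each site in the genome were then counted by whether a peak lay over them. Of 1557 CRE palindromes in promoter windows, 350 (22.5%) lay within 50 bp of an optimal summit, against 17.7% of 4469 elsewhere and 18.9% of all (adjusted exact p = 0.000290 over 7 words, Fisher's exact test). The order was the same in the highest peaks of replicate 1, at 22.8% and 18.7%, and of replicate 2, at 14.1% and 10.4%. The copies elsewhere were not alike: CRE copies in exons were occupied in 21.7% of 1392 cases (exact 95% interval 19.6% to 24.0%), close to the promoter value (20.4% to 24.6%), against 15.7% of 1879 in introns and 16.1% of 1198 between genes. In the pooled list the occupied share was 43.3% in promoters and 51.4% in exons, so the higher occupancy was not particular to promoters. Among copies whose surrounding 30 bases occur once in the genome it was 25.8% against 19.8%. For TGATGCAA the shares were 1.89% and 0.761% (adjusted exact p = 0.00781). For the C/EBP palindrome they were 29.4% of 436 and 26.2% of 1155 (27.1% of all, adjusted exact p = 0.366), and for TTACGCAA 15.4% of 577 and 13.9% of 1601 (14.3% of all, adjusted exact p = 0.428). TGACGTAA, TTACGTAA and TGACGCAA did not differ by this test either, with adjusted exact p of 0.141, 0.366 and 0.609. By distance, CRE occupancy ran between 17.9% at -600 to -401 bp and 26.5% of 260 copies in the 200 bp upstream of the start. It was also 26.5% of 268 copies downstream of the start. C/EBP occupancy was 35.9% of 64 copies in the 200 bp farthest upstream (exact 95% interval 24.3% to 48.9%). Downstream of the start it was 15% of 60 copies (7.10% to 26.6%).

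The share of copies occupied varied with the base on each side. A CRE palindrome in a promoter with A or G as the base just 5′ of it on both strands was occupied in 335 of 860 cases (39.0%). With T on at least one side it was occupied in 1 of 251 cases (0.398%), and with C and no T in 14 of 446 (3.14%). With A on both sides the share reached 60.7% of 211 copies in promoters and 56.8% of 555 elsewhere. For the C/EBP palindrome in promoters the 3 shares were 72.6% of 157 with A or G on both sides, 0.930% of 215 with T and 18.8% of 64 with C and no T. TTACGCAA followed the same order, at 54.9% of 144, 1.198% of 334 and 6.06% of 99. With A or G on both sides in promoters, the share was 39.5% in replicate 1 and 24.0% in replicate 2 for CRE copies, 66.9% and 43.3% for C/EBP copies, and 57.6% and 37.5% for TTACGCAA. With T on at least one side the promoter shares in the replicates ran up to 1.86%. These shares over flanking bases are descriptions, since the grouping was chosen after they had been seen.

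**Figure D4:**
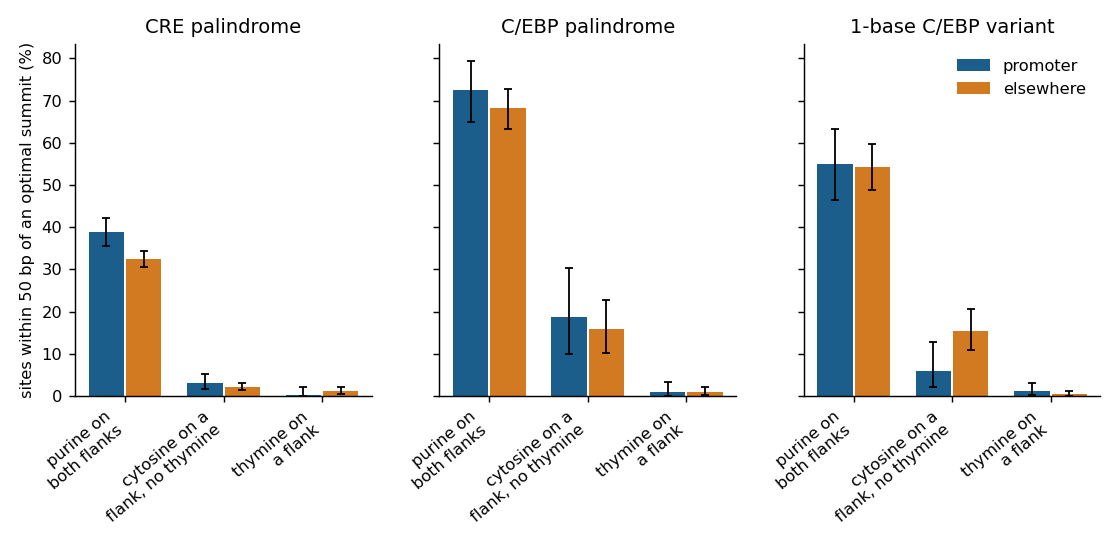
Share of site copies in the nuclear genome that lie within 50 bp of an optimal summit, in promoter windows and elsewhere. The vertical axis is percent, with exact 95% binomial intervals. Copies are grouped by their flanks, a flank being the base just 5′ of the word, read on each strand. In promoters, copies with a purine as that base on both strands reach 39.0% for CRE, 72.6% for C/EBP and 54.9% for the word 1 base from it. Copies with thymine as that base on either strand stay at or below 1.198%.

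The promoter peaks touched 869 of 19973 protein-coding genes (4.35%), of which 836 had 1 summit, 31 had 2 and 2 had 3. Both genes with 3 summits, lido-8 and Y43F8B.2, had the CRE palindrome at every one of them. At lido-8 the summits lay at -631, -416 and -268 bp from the nearest of its starts, with pooled signals of 524, 97.1 and 46.5. The first pair shared 1 peak interval and the same replicate signals, 464 in replicate 1 and 111 in replicate 2. The sequence printed for the first repeats a stretch around the palindrome, so these summits need not be separate sites of binding. At Y43F8B.2 they lay at 74, -622 and -140 bp, with 113, 29.5 and 27.9. Of the bound genes 361 have a clone name only, and 691 were in none of 33 lists of genes by role. Counts for those lists follow, to be read against 4.35%, with no test over a list. Genes with a head-to-head neighbour upstream were bound in 4.82% of cases and those with a head-to-tail neighbour in 3.96%.

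zip-8 itself had 2 promoter peaks. The nearer one, upstream of the start, had a signal of 182 pooled, 149 in replicate 1 and 32.8 in replicate 2, and that at -499 bp had 154, 72.0 and 75.6 in the same order. The second was rank 22 of replicate 2 but rank 224 of replicate 1. Because the integrated transgene also carries zip-8, reads from it and from the gene's own locus cannot be told apart there. unc-119, the rescue marker of such strains, had no promoter peak.

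Among transcription factors, 19 of 99 genes in the homeodomain list (19.2%) were bound, and 14 of these had a full site at a bound summit, while the other 5 had TTACGCAA. Highest were ceh-16, given above, pax-2 (57.8 pooled, 36.3 in replicate 1, 8.41 in replicate 2), eyg-1 (56.4, 35.5 and 9.08) and unc-42 (54.6, 30.4 and 9.70). Of bZIP genes 5 of 29 were bound: zip-8, zip-7, atf-7, zip-2 and xbp-1, the last with 23.4 pooled, 5.75 in replicate 1 and no peak in replicate 2. GATA genes had 2 of 12 (egl-27 and elt-3), forkhead genes 2 of 15 (let-381 and pes-1), bHLH genes 2 of 37 and T-box genes 1 of 21. Nuclear hormone receptor genes, with 12 of 274 (4.38%), were near the 4.35% of all genes. Their highest peaks were at sex-1, which counts X chromosomes in sex determination (142 pooled, 87.3 in replicate 1, 39.6 in replicate 2), and nhr-49, a regulator of fat metabolism (101.1, 53.1 and 50.99).

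Of signalling genes, 4 of 29 in the Wnt pathway were bound: lin-18, which encodes a Ryk-type receptor (170 pooled, 158 in replicate 1, 8.78 in replicate 2), the kinase gene mom-4, the Frizzled gene mom-5 and the ligand gene lin-44. Neither mom-4 nor lin-44 had an overlapping peak in replicate 2. The mom-4 summit is divergent and lies nearer to lsl-1, at 85 bp against -344 bp. Insulin-like genes had 5 of 49, with ins-28, ins-26, ins-2 and ins-18 ahead of daf-2. Neither ins-28 nor ins-26 had an overlapping peak in replicate 2. Neuropeptide genes had 1 of 102, nlp-40, with 108 pooled, 77.9 in replicate 1 and 23.2 in replicate 2. Notch pathway genes had 0 of 16.

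The mitochondrial stress list had 4 of 15. Highest was ubl-5 (63.1 pooled, 50.6 in replicate 1, 23.6 in replicate 2), followed by the prohibitin gene phb-1, the protease gene clpp-1 and dve-1. Each had a CRE or C/EBP palindrome, where 39.2% of all promoter peaks had the first and 15.8% the second. The phb-1 summit is divergent and lies nearer to Y37E3.8, at -306 bp against -439 bp. For clpp-1 the overlapping peak of replicate 2 had rank 8522. For dve-1 the signal was 21.5 pooled, with no peak in replicate 2. The endoplasmic reticulum list had 6 of 25, of which 2 had a full site and none TTACGCAA. Its highest were abu-11 (77.4 pooled, 49.3 in replicate 1, 21.2 in replicate 2), pek-1, the PERK kinase gene, hsp-3, a BiP-type chaperone gene, and crt-1, the calreticulin gene. For crt-1 the signals were 26.8 pooled, 3.18 in replicate 1 and 24.8 in replicate 2, which were ranks 15032 and 326 of those lists. Heat shock genes had 2 of 53 and glutathione S-transferase genes 1 of 49.

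In metabolism, fatty acid and acyl-CoA enzyme genes had 2 of 77, acdh-6 and pod-2, the acetyl-CoA carboxylase gene. UDP-glucuronosyltransferase genes had 4 of 67, led by ugt-24 (137 pooled, 103 in replicate 1, 37.3 in replicate 2), and cytochrome P450 genes 1 of 75. In the machinery of growth, cell cycle and replication genes had 12 of 89 (13.5%), led by sld-5, a GINS subunit gene (125 pooled, 86.4 in replicate 1, 42.4 in replicate 2), cdc-25.2, cya-1 and cki-2. The summits of cye-1, cdc-48.2, mcm-3, pola-1 and rnr-2 were divergent, where 9.41% of promoter peaks were. Those of cye-1, mcm-3 and pola-1 lay nearer to the paired gene. That of rnr-2 overlapped a peak of rank 16455 in replicate 1. Histone genes had 9 of 84, and these 9 rest on fewer summits, since his-67 and his-68 share 1, as do his-3 and his-4. Cytosolic ribosomal protein genes had 5 of 79, and none of these 5 had a full site or TTACGCAA. Their pooled signals ran from 21.8 at rpl-35 to 40.2 at rpl-12. Mitochondrial ribosomal protein genes had 0 of 69. Splicing factor genes had 2 of 47, proteasome genes 1 of 33 and tRNA synthetase genes 1 of 32.

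Among the large gene families, chemoreceptor genes had 35 of 1310 (2.67%), led by srd-43 (95.0 pooled, 55.7 in replicate 1, 22.5 in replicate 2) and srt-6 (92.5, 58.1 and 24.7). F-box genes had 11 of 322 and C-type lectin genes 8 of 240. All 8 lectin genes had a full site, where 77.8% of all promoter peaks had one. Cuticle collagen genes had 8 of 175, again all with a full site, led by col-129 (187 pooled, 146 in replicate 1, 26.0 in replicate 2) and col-130 (114, 97.2 and 14.8). Hedgehog-related and Patched-related genes had 7 of 88, of which grl-29 and grl-30 share 1 summit, led by che-14, which encodes a Dispatched-type protein (150.2 pooled, 88.6 in replicate 1, 36.5 in replicate 2). Cadherin and junction genes had 2 of 29, autophagy and lysosome genes 3 of 64, and ubiquitin conjugation genes 5 of 60.

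**Figure D5:**
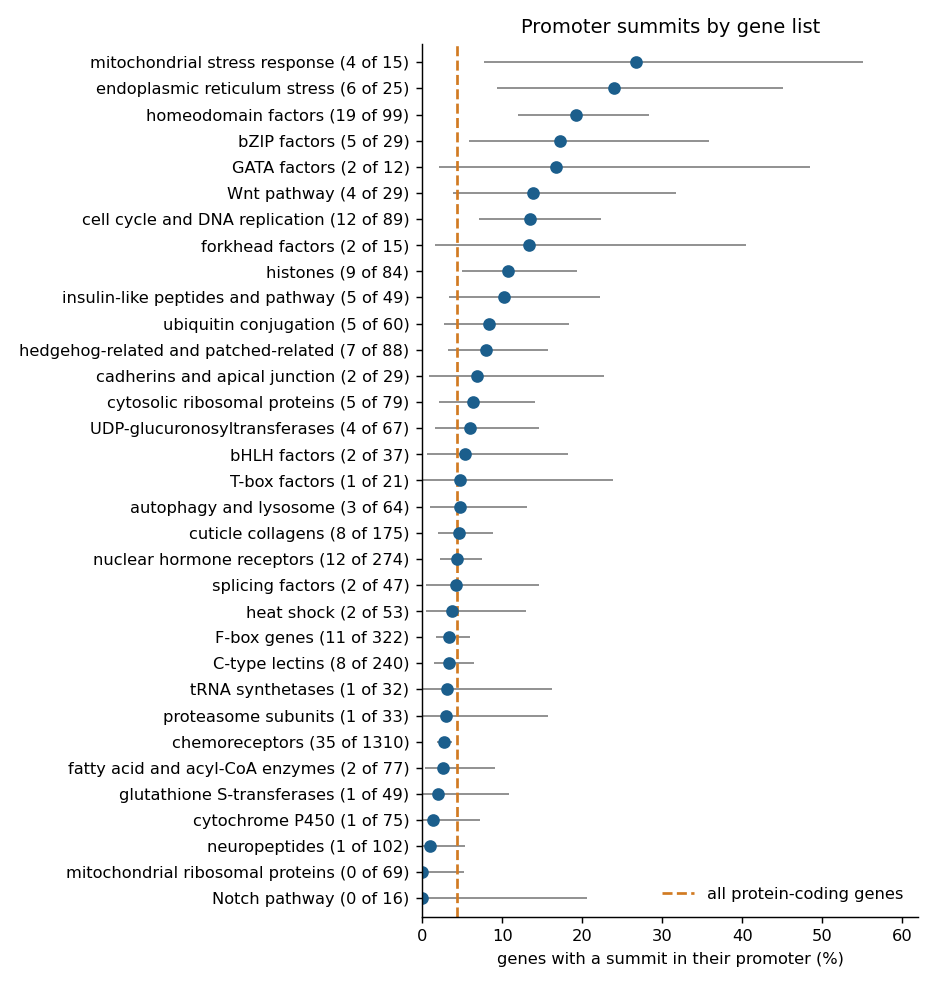
Share of each gene list with an optimal summit in a promoter (points, percent, with exact 95% binomial intervals that cover counting error only), ordered by share, with the count of bound genes and of genes in the annotation. The dashed line is the 4.35% of all protein-coding genes; mitochondrial stress genes (4 of 15) stand highest and Notch and mitochondrial ribosomal protein genes at 0.

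By chromosome, the share of genes bound ran from 3.54% on chromosome IV to 5.66% on chromosome I, and the share of a chromosome's optimal peaks that lay at promoters ran from 25.5% on X to 35.7% on V. Noncoding genes were close by at some summits: 122 promoter peaks (15.1%) also lay in the same window of a noncoding gene or pseudogene, and their assignment to the protein-coding gene is by the rule alone. Summits just inside the window were those of asah-2 at -997 bp (signal 32.5), ins-26 at -995 bp (51.5) and C39B10.5 at -994 bp (28.1) on the upstream side, and of fbxc-36, clec-185 and Y39B6A.34/Y39B6A.33 at 200 bp (41.1, 49.6 and 58.0) on the downstream side. Just outside lay those nearest to C45G7.13 at -1001 bp (28.1), Y71G12B.2 and Y116A8C.23 at -1003 bp (37.8 and 23.5), sox-4 at 201 bp (24.2), F26F4.5 at 203 bp (28.02) and Y82E9BR.17 at 204 bp (22.5).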

How the data were processed

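ChIP-seq against eGFP-ZIP-8 was analysed from the deposited narrowPeak lists on ce11: 1 list per replicate (22773 and 12190 nuclear peaks for replicates 1 and 2), a pooled list (29972) and an optimal list (2634 peaks, 2610 of them nuclear). Per the file headers, the authors made the replicate and pooled lists, unthresholded, from alignments and a control, and derived the optimal list from them by the irreproducible discovery rate. Neither headers nor labels name the caller, aligner or threshold. The signal of a peak is the enrichment value the authors deposited. The lists on ce10 and the alignments were not used here.

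Starts were those of protein-coding transcripts in Ensembl release 115 (19973 genes, 29304 distinct starts). A peak of the replicate lists matched an optimal peak on an overlap of at least 1 bp. A 2610-peak limit on each replicate list stood for its highest peaks, and leaving out a replicate means using the other's highest peaks. Words were searched on both strands of the RefSeq sequence within 50 bp of a summit. Shares were compared by two-sided Fisher's exact tests, Benjamini-Hochberg adjusted over 10 planned comparisons, and over 19 added comparisons of peaks and 7 words chosen after results had been seen. The members, gene lists and sites were chosen with earlier results of these data known. Intervals are exact Clopper-Pearson 95% intervals and cover counting error only, and the depth is unknown.

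Named genes were those of the 15 highest promoter peaks, the 10 highest divergent peaks, up to 4 bound genes of highest signal per list, the summits nearest the window's edges, genes with most summits, zip-8 and unc-119. The others, among them those with TTACGCAA, with downstream CRE summits or with neither site, were chosen after their values were seen. The assignment, word search and tests were tested on simulated data. Python 3.11.15, numpy 2.4.6, scipy 1.17.1 and matplotlib 3.10.9 were used.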

Additional observations from a re-analysis of the deposited data

How the results depend on the processing

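Of 165 values under other settings, 145 kept their direction and their side of the threshold or stayed close to the reported value. No paired analysis was possible because there is 1 group. The count of bound genes was 437 with peaks at or above the median signal and 507 with windows of 500 and 100 bp, where fewer peaks or bases entered. The promoter share was 18.8% with those windows, 24.8% with the first start of each gene only, and 30.1% to 33.8% when either replicate was left out. Promoter minus other signal turned to 0.376 points with the narrower windows. Divergent minus single full sites turned to 8.18 points at or above the median signal and ran from -15.4 to -1.42 points with a replicate left out; the value of -15.4 passed. Promoter minus other full sites ran from -6.68, which passed, to -1.51. Without a replicate, the divergent share (optimal minus lower-ranked) ran from -1.88 to 1.92, recovery from -2.33 to 4.46, and width from -0.234 to 0.180. The cause of these shifts was not tested.

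Among the comparisons added later, the C/EBP minus CRE difference in high signals was 0.927 points at or above the median signal, and 6.66 to 26.9 points with a replicate left out. At or above the median signal the difference was -8.85 points for no full site minus full site and 6.59 for TTACGCAA minus neither, none of them past the threshold. The CRE share at divergent minus single promoters was -10.02 with the first start only, -13.2 at or above the median signal, -10.1 with sites within 25 bp and -15.8 with the narrower windows, none past the threshold. CRE occupancy in promoters minus elsewhere kept its direction and passed under each setting run, with exons, introns and intergenic copies pooled as elsewhere. With unknown depth, shares such as 12.4% and 55.5% for TTACGCAA in replicates 2 and 1 cannot be set against sequencing effort.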
